A study of Mus musculus with 6 samples.

Results

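The genes described are adiponectin (Adipoq) and 9 receptors of the progestin and adipoQ receptor (PAQR) family: Adipor1, Adipor2 and Paqr3 to Paqr9. They were found by symbol, and all 10 have a row among the 19241 genes of the deposited table. The family was selected on the measured fall of Paqr9 between the groups of these libraries, so the values of Paqr9 are a description without a test. Bulk RNA was sequenced from whole interscapular brown fat of newborn mice, in 3 WT libraries, whose genotype is given as Fstl1-floxed, and 3 KO libraries, whose genotype is given as Myf5-Fstl1 KO. The comparison asks how RNA of the depot differs when cells of the Myf5 lineage lack Fstl1, the gene of a secreted glycoprotein. Myf5-lineage precursors form skeletal muscle and many brown adipocytes of this depot, while vessels, blood cells and other cells of the depot come largely from other lineages. The labels name no Cre allele, strain, sex or litter and do not say whether animals were pooled, so p-values measure the spread between these libraries.

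Adiponectin is a hormone that adipocytes secrete in multimers, and it shares a C1q-like domain with the complement protein C1q and the C1q/TNF-related proteins. Its receptors Adipor1 and Adipor2 are multi-pass membrane proteins with the amino terminus in the cytosol; they act through AMP-activated protein kinase and PPARα, and they have ceramidase activity. Paqr5 to Paqr9 form the membrane progestin receptor class and Paqr3 is a member that resides in the Golgi. Brown adipocytes both make adiponectin and express its receptors.

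Values are FPKM, fragments scaled to transcript length and to library size, so levels of different genes can be set side by side. Differences are KO minus WT on the log2(FPKM + 1) scale, which understates changes of low genes, with standard errors from limma. A gene was called at an adjusted p of 0.05 over the 13331 genes whose mean over all 6 libraries reached 0.5 FPKM. Fstl1 measured 55.5, 130.04 and 54.4 FPKM in the WT libraries, against 7.93, 13.1 and 8.77 FPKM in the KO libraries (difference -2.79, SE 0.33, limma adjusted p 0.00979). Values of each group are listed in the order of replicates 1, 2 and 3. The libraries held an estimated 13740000 to 14880000 reads. Xist lay between 44.8 and 85.5 FPKM in WT and between 0.05 and 0.92 FPKM in KO, and the Y-linked Eif2s3y between 0 and 0.08 FPKM in WT and between 83.7 and 99.3 FPKM in KO. Sex and genotype therefore cannot be told apart in any difference below. Because the tissue was sequenced in bulk, fewer cells of a type and less RNA per cell cannot be told apart either.

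The 250 bases before the annotated start are shown for the ligand Adipoq and its receptor Adipor1, as a view of the start regions of a hormone gene and a receptor gene of the same tissue. Sequences are from RefSeq on GRCm38.p6, which held such stretches for 9 of the 10 members, all except Paqr9. Among the 12 stretches these are the 2 with 0 bases inside their RefSeq gene and 0 bases in GENCODE exons; the other 10 stretches overlap one or the other. Capitals mark CCAAT boxes (CCAAT or its complement) and GC boxes (GGGCGG). The Adipoq stretch is chr16:23146286-23146535 and the Adipor1 stretch is chr1:134415128-134415377, both on the plus strand.
Adipoq: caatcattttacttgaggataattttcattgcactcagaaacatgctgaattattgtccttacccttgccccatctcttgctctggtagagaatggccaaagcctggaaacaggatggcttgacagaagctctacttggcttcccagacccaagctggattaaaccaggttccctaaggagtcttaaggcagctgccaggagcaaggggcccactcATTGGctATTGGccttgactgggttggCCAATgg
Adipor1: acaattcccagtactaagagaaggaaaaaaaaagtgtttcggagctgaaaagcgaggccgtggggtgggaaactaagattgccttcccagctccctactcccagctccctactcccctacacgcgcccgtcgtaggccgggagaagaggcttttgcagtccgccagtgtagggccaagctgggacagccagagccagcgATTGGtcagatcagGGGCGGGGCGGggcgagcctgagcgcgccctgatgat
Adipoq held 3 CCAAT boxes, which begin 34, 27 and 7 bases before the start (positions -34, -27 and -7), and no GC box. Adipor1 held 2 GC boxes, which begin at positions -37 and -32 and share a base, and 1 CCAAT box at position -51. The GC content was 48.8% in the Adipoq stretch and 59.6% in the Adipor1 stretch. Among all 32851 RefSeq stretches of this length, 33.8% held a CCAAT box and 32.7% a GC box on either strand. Searches on both strands for a TATA box (TATAAA), an E-box (CACGTG), a C/EBP site (TTGCNNAA), a PPAR and RXR site of the DR1 type (AGGTCA repeated after 1 base of any kind) and a sterol regulatory element (TCACNCCAC) matched neither stretch. These letters occur in 12.4%, 6.02%, 9.56%, 0.0335% and 1.05% of all stretches. A match is a description of the letters only, and the motifs and the 2 stretches shown were chosen after the members' values were seen.

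The members spanned a wide range of levels, and their order was similar in both groups. In WT the mean levels ran from Adipoq through Adipor2, Adipor1, Paqr9, Paqr4, Paqr7, Paqr3, Paqr8 and Paqr6 to Paqr5. The ranges of the neighbours Paqr7 and Paqr3 overlapped, as did those of Paqr8 and Paqr6 and those of Paqr6 and Paqr5, so the order within these pairs does not exceed the spread. In KO, Paqr9 moved from the fourth place to the sixth, between Paqr3 and Paqr7, and its range overlapped those of both. Adipor1 and Adipor2 together made up 94.7% ± 0.743 (SD, n = 3) of the summed FPKM of the 9 receptors in WT and 97.2% ± 0.472 in KO. Most RNA of these 9 receptors was thus that of the adiponectin receptors. The sum leaves out the more distant PAQR relatives Mmd and Mmd2. Mmd had means of 65.3 FPKM in WT and 35.4 FPKM in KO, and Mmd2 of 12.2 and 7.6 FPKM.

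**Figure D1:**
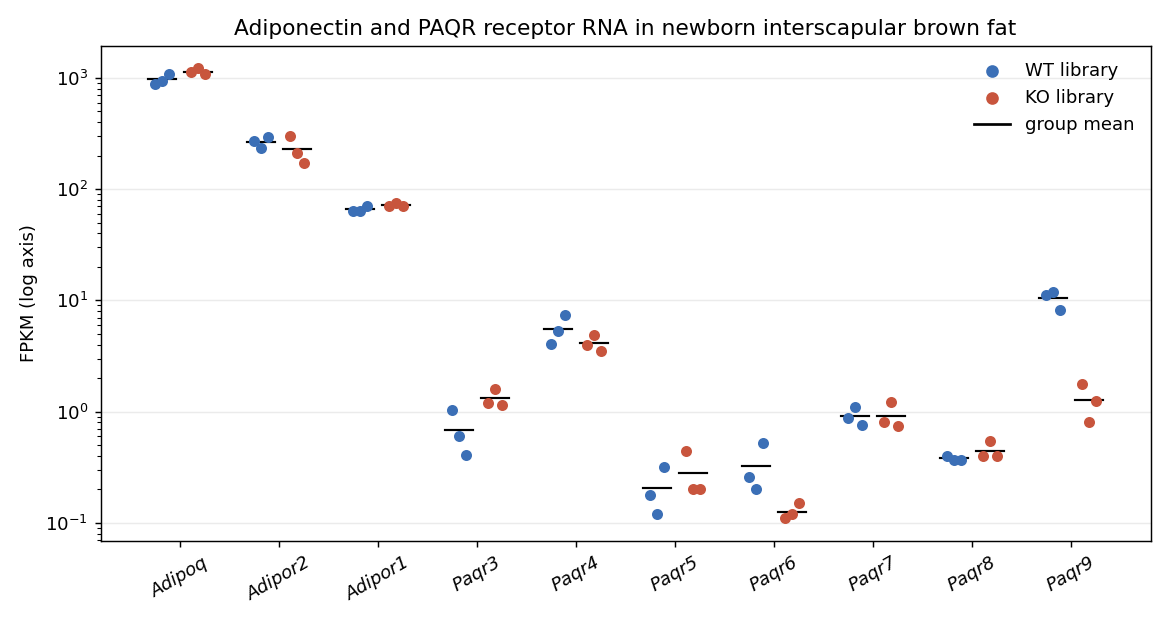
Level of each member in every library, in FPKM on a log axis, with WT libraries in blue, KO libraries in red and a black bar at each group mean. Adipoq, Adipor2 and Adipor1 stand above 60 FPKM in all 6 libraries, and Paqr9 is the member whose groups lie farthest apart.

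Of the 9 members other than Paqr9, 6 reached the level needed for the test and 0 of these were called in limma, where 2.21% of all tested genes were called. At an unadjusted p under 0.05 there was 1 of the 6, Paqr3, beside 19.2% of all tested genes. The differences were above 0 in 4 and below 0 in 2 of the 6, with a median of 0.06, beside a median of 0.01 over all tested genes. The WT and KO values did not overlap in 2 of the 6, Adipor1 and Paqr3, where the share over all tested genes was 24.9%. Paqr5, Paqr6 and Paqr8 lay below the level for the test.

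Adipoq (Entrez gene 11450; chromosome 16, 23146536 to 23157968 on mm10), the ligand, measured 889, 937 and 1079 FPKM in the WT libraries. The KO libraries held 1133, 1216 and 1072 FPKM. KO replicate 3 lay just below the highest WT library, and the other KO libraries lay above every WT library. The WT mean was 968 ± 98.5 FPKM (SD, n = 3) and the KO mean 1140.5 ± 71.9 FPKM, a difference of 0.24 (SE 0.14, limma adjusted p 0.392). By level Adipoq was the 69th to 71st gene of the table in the WT libraries and the 46th to 56th in the KO libraries.

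Adipoq was set beside 12 other adipocyte markers and 8 brown adipocyte markers, lists written with earlier results of these data known. Of the 12 adipocyte markers 2 were called, both lower, where 1.01% of all tested genes were called lower: Plin1, which coats lipid droplets, and the hormone gene Lep. Their median difference was -0.07. Plin1 measured 174, 309 and 254 FPKM in WT, against 106, 76.6 and 96.9 FPKM in KO (difference -1.36, SE 0.22, limma adjusted p 0.0267). Lep measured 0.91, 2.22 and 0.98 FPKM in WT, against 0.11, 0.13 and 0.06 FPKM in KO (difference -1.07, SE 0.21, limma adjusted p 0.0423). Fabp4, a fatty acid carrier and the most abundant of these markers, had means of 15810 ± 1672 FPKM in WT and 15037 ± 944 FPKM in KO (limma adjusted p 0.85). Lep, 1 of the 2 called, reached the level for the test only through the WT libraries, where it is high, so its call is no support. Leaving out 1 library ended the Plin1 call in 4 of 6 fits, at adjusted p from 0.061 to 0.108, and the Lep call in 5 of 6, at adjusted p from 0.0949 to 0.118. Adipoq differed in sign from Plin1 and Lep, and the difference between those differences was not tested. Of the 12 markers 4 had differences above 0, as Adipoq did, and 8 had differences below 0. Those above 0 were Cfd (0.34), Pnpla2 (0.33), Retn (0.20) and Lpl (0.12), and none of them was called. Retn measured 67.8, 159 and 201 FPKM in WT, against 139, 165 and 144 FPKM in KO, so its sign rests on WT replicate 1. The summed level of the 12 markers ranged from 18980 to 22484 FPKM in WT and from 19845 to 21207 FPKM in KO, so the groups overlapped. Fabp4 made up most of the sum in every library, so the sum says little about the other markers. Of the 8 brown adipocyte markers 1 was called, the fatty acid elongase Elovl3, which was lower. Over all tested genes 1.01% were called lower. The median difference of the 8 markers was -0.55. At an unadjusted p under 0.05, beside 19.2% of all tested genes, there were 4 of the 8. Besides Elovl3 these were Ucp1, the uncoupling protein of thermogenesis (5582 ± 1055 FPKM in WT, 2729 ± 959.9 FPKM in KO, limma adjusted p 0.0804), and the brown fat regulators Prdm16 (limma adjusted p 0.0519) and Ebf2 (limma adjusted p 0.0917). The KO values of these 4 genes all lay below the WT values, where the groups did not overlap in 24.9% of all tested genes. In the other 4 brown adipocyte markers the groups overlapped. Their differences were above 0 for Cidea (0.13) and Pdk4 (0.34), and below 0 for Dio2 (-0.23) and Cox7a1 (-0.06). Pdk4 measured 288, 222 and 268 FPKM in WT, against 204, 216 and 785 FPKM in KO. KO replicates 1 and 2 of Pdk4 lay below every WT library, so its sign rests on KO replicate 3. Cidea measured 1299, 1525 and 1988 FPKM in WT, against 1801, 1612 and 1763 FPKM in KO, so WT replicate 3 was its highest library. The Elovl3 call was lost without WT replicate 2 (adjusted p 0.074) and without WT replicate 3 (0.0815).

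**Figure D2:**
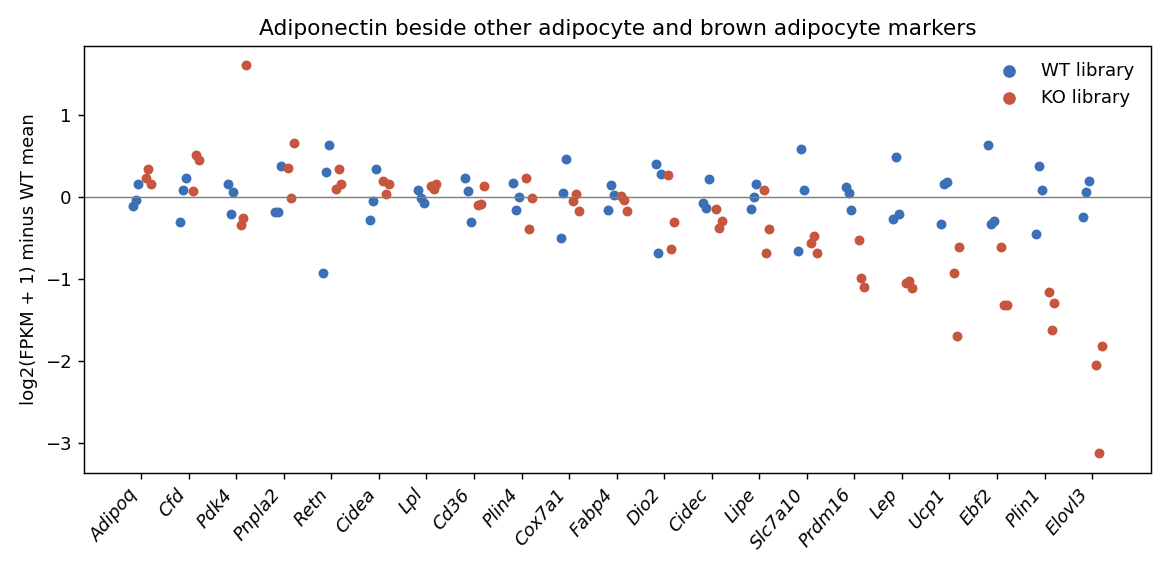
Adipoq and the adipocyte and brown adipocyte markers in each library, as log2(FPKM + 1) minus the mean of the WT libraries, with WT in blue and KO in red. The KO libraries of Adipoq lie above the mean of the WT libraries, while those of Plin1, Lep and Elovl3 lie below. The mean differences of Cfd, Pnpla2, Retn, Lpl, Cidea and Pdk4 are also above 0, and those of the remaining markers are below 0. The sign for Pdk4 rests on KO replicate 3 and the sign for Retn on WT replicate 1.

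Adiponectin is folded and assembled in the endoplasmic reticulum by a set of oxidoreductases and hydroxylases. Of 8 genes of that set 0 were called, where 2.21% of all tested genes were called. The lowest p belonged to Ero1l, an oxidase that supports disulfide formation, with means of 21.1 ± 5.64 FPKM in WT and 13.7 ± 2.14 FPKM in KO (difference -0.57, limma adjusted p 0.179; without WT replicate 1 the difference was -0.38). Erp44, which retains adiponectin in the secretory pathway, had means of 32.0 ± 0.815 FPKM in WT and 37.1 ± 2.41 FPKM in KO (limma adjusted p 0.426). Plod2, a lysyl hydroxylase, had means of 6.03 ± 1.21 FPKM and 6.88 ± 0.0814 FPKM (limma adjusted p 0.588). The set's median difference was 0.13.

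Of 7 genes for transcription factors known to act on Adipoq, 0 were called, where 2.21% of all tested genes were called. At an unadjusted p under 0.05 there were 4 of the 7, beside 19.2% of all tested genes. Cebpb measured 52.0, 45.5 and 59.6 FPKM in WT, against 38.4, 20.7 and 23.3 FPKM in KO (difference -0.95, limma adjusted p 0.0674). Srebf1, which drives lipogenic genes, measured 34.4, 41.9 and 42.8 FPKM in WT, against 25.96, 25.5 and 10.97 FPKM in KO (difference -0.99, limma adjusted p 0.118; without KO replicate 3 the difference was -0.60). Cebpd measured 4.98, 10.3 and 6.92 FPKM in WT, against 11.97, 11.6 and 16.98 FPKM in KO (difference 0.82, limma adjusted p 0.118). In these 3 genes, which had the smallest p of the list, no KO value lay within the WT range, and the signs were mixed. Rxra, the other gene with an unadjusted p under 0.05, did not overlap either (difference 0.38, limma adjusted p 0.24). The groups did not overlap in 24.9% of all tested genes. Pparg, the main adipogenic nuclear receptor, measured 170, 163 and 226 FPKM in WT, against 196, 262 and 185 FPKM in KO, which overlap.

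Adipor2 (68465, chromosome 6, 119353150 to 119417699), the more abundant adiponectin receptor, measured 271, 234 and 292 FPKM in WT. The KO libraries held 303, 211 and 172 FPKM. The KO libraries spread on both sides of the WT range: replicate 1 was the highest of all 6 libraries, and replicates 2 and 3 were the lowest. The means were 266 ± 29.6 FPKM in WT and 229 ± 67.5 FPKM in KO (difference -0.25, SE 0.21, limma adjusted p 0.557). Without KO replicate 1 the difference was -0.47, and without KO replicate 3 it was -0.06, so single KO libraries set its size. KO replicate 1 was also the library with the lowest skeletal muscle signal: the 12 muscle markers summed to 327 FPKM there, to 1427 and 1719 FPKM in the other KO libraries and to between 1300.3 and 1900.0 FPKM in WT. In KO replicate 1 no muscle marker was at 0, and the part of muscle RNA in the Adipor2 values was not tested.

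Adipor1 (72674, chromosome 1, 134415378 to 134433351) was close in all libraries. It measured 64.1, 64.3 and 70.1 FPKM in WT, against 71.2, 74.9 and 70.5 FPKM in KO. All KO values lay above all WT values, with a gap between 70.13 and 70.52 FPKM. The means were 66.2 ± 3.43 FPKM in WT and 72.2 ± 2.39 FPKM in KO (difference 0.12, SE 0.13, limma adjusted p 0.632). Adipor2 exceeded Adipor1 in every library, by ratios of 4.23, 3.64 and 4.16 in WT and of 4.26, 2.82 and 2.44 in KO. The ratio of Adipoq to the 2 receptors together was 2.65, 3.15 and 2.98 in WT and 3.03, 4.25 and 4.43 in KO, so that KO replicates 2 and 3 were above the WT range and KO replicate 1 within it.

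Other proteins that bind adiponectin or C1q-like domains showed 0 calls among 3 genes, where 2.21% of all tested genes were called. Cdh13 (T-cadherin), which retains adiponectin on the surface of vessel and muscle cells, had means of 25.3 ± 4.46 FPKM in WT and 25.9 ± 1.25 FPKM in KO (limma adjusted p 0.916). Lrp1, an endocytic receptor, had means of 7.28 ± 0.93 FPKM and 10.3 ± 2.08 FPKM (difference 0.43, limma adjusted p 0.225; without KO replicate 3 the difference was 0.29). Calr, the chaperone calreticulin, had means of 215 ± 12.8 FPKM and 199 ± 18.97 FPKM (limma adjusted p 0.70).

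Downstream of the adiponectin receptors 1 of 16 tested genes was called, higher in KO, and 6 of the 16 had an unadjusted p under 0.05, beside 19.2% of all tested genes. Their median difference was -0.11, with 7 above and 9 below 0, beside 1.21% of all tested genes called higher. The called gene was Appl2, an adaptor related to the receptor-binding adaptor Appl1. Appl2 measured 12.4, 12.9 and 11.4 FPKM in WT, against 19.3, 20.4 and 19.5 FPKM in KO (difference 0.65, SE 0.13, limma adjusted p 0.0429). The Appl2 groups lie well apart and each is tight. The call was nevertheless lost without any 1 library other than WT replicate 1, at adjusted p from 0.116 to 0.166 and differences from 0.60 to 0.68 over the 6 fits that each left out a library. Appl1 itself measured 12.2, 7.33 and 5.69 FPKM in WT, against 8.83, 11.5 and 9.59 FPKM in KO, which overlap (limma adjusted p 0.575). Sirt1, a deacetylase, had means of 11.03 ± 3.78 FPKM in WT and 19.7 ± 2.82 FPKM in KO (difference 0.82, limma adjusted p 0.0969; without WT replicate 1 it was 1.06, at 0.04). Prkag2, a regulatory subunit of AMP-activated protein kinase, had means of 45.9 ± 4.35 FPKM and 29.5 ± 7.99 FPKM (difference -0.65, limma adjusted p 0.118).

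The receptors' ceramidase activity links them to ceramide metabolism, and of 19 tested genes for ceramide enzymes and sphingosine 1-phosphate receptors 1 was called, higher in KO, where 1.21% of all tested genes were called higher. It was Acer2, an alkaline ceramidase of the Golgi, at 37.0, 39.1 and 30.1 FPKM in WT, against 74.6, 60.2 and 116.7 FPKM in KO. Every KO library of Acer2 exceeded every WT library, with KO replicate 3 the highest (difference 1.17, SE 0.24, limma adjusted p 0.0423). Leaving out any 1 library ended the call, at adjusted p from 0.0541 to 0.143 and differences from 0.91 to 1.38, and so did median-of-ratios scaling (limma adjusted p 0.0534, with 0.0308 to 0.143 over the settings of the closing section). Sphk1, a sphingosine kinase, had means of 0.39 ± 0.115 FPKM and 1.24 ± 0.502 FPKM (difference 0.67, limma adjusted p 0.0969), and it reached the level for the test only through the KO libraries. S1pr3, a sphingosine 1-phosphate receptor, had means of 5.76 ± 1.197 FPKM and 3.49 ± 0.248 FPKM (difference -0.58, limma adjusted p 0.111). The list's median difference was -0.03, and 4 of the 19, Sphk1 included, had an unadjusted p under 0.05, beside 19.2% of all tested genes.

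**Figure D3:**
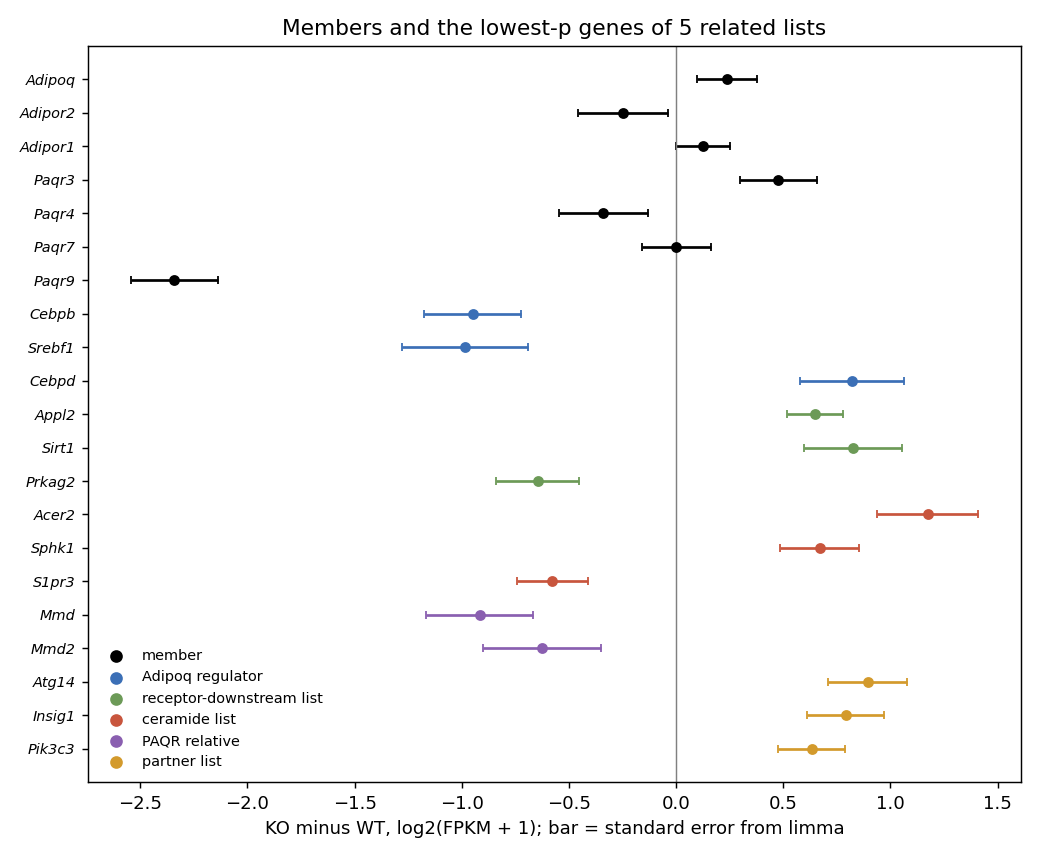
Differences between KO and WT on the log2(FPKM + 1) scale, with standard errors from limma, for the 7 members at or above the level for the test and for the genes with the lowest p of 5 related lists. Paqr9 stands at -2.34, and the other members lie between -0.34 and 0.48.

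Paqr9 (75552, chromosome 9, 95559634 to 95568022), of the membrane progestin receptor class, measured 11.2, 11.9 and 8.28 FPKM in WT. The KO libraries held 1.77, 0.80 and 1.25 FPKM. The highest KO library was far below the lowest WT library. The means were 10.5 ± 1.91 FPKM in WT and 1.27 ± 0.485 FPKM in KO, which is 12.2% of the WT mean, and the difference was -2.34 (SE 0.20). These values chose the family and support nothing further. The gene is annotated as a single exon, with a GENCODE transcript of 8367 nt, so its FPKM correspond to an estimated 1003.7 to 1458.2 reads in WT and 97.8 to 202.5 reads in KO. These counts are well above the 8.0 to 31.7 reads estimated for Paqr3.

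RefSeq lists Blnc1, the name of a long noncoding RNA of brown fat, among the synonyms of Paqr9, and the table has 0 rows under the symbol Blnc1. The values cannot tell Paqr9 messenger RNA from other RNA counted at the same locus. On either side of Paqr9, looked up after its values were seen, the nearest genes in the table were U2surp, 47638 bp away, and Pcolce2, 69606 bp away. U2surp had means of 13.8 FPKM in WT and 15.9 FPKM in KO (difference 0.25, limma adjusted p 0.607), and Pcolce2 of 1.47 FPKM and 2.23 FPKM (difference 0.35, limma adjusted p 0.401). Leaving out 1 library moved the Pcolce2 difference to between 0.15 (without KO replicate 2) and 0.55 (without KO replicate 3), and the U2surp difference to between -0.0070 (without WT replicate 3) and 0.51 (without WT replicate 1). Neither neighbour was called.

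The 5 genes whose centred log2(FPKM + 1) profile over the 6 libraries differed least from that of Paqr9, among 12138 genes averaging 1 FPKM or more, were Elovl3, Clstn3, Hdhd3, Snord83b and Spry4. Their root mean square differences from the Paqr9 profile ran from 0.38 for Elovl3 to 0.46 for Spry4. Elovl3 went from 22.7 ± 3.62 FPKM in WT to 4.0 ± 2.06 FPKM in KO, and Clstn3 (calsyntenin) from 27.0 ± 5.26 FPKM to 6.43 ± 3.18 FPKM. Hdhd3 went from 12.9 ± 3.21 FPKM to 1.88 ± 1.06 FPKM, and Spry4, an inhibitor of receptor tyrosine kinase signalling, from 23.8 ± 7.0 FPKM to 6.55 ± 1.53 FPKM. Snord83b, a small nucleolar RNA gene, had a mean of 3.96 ± 2.65 FPKM in WT and was listed at 0 in all KO libraries. It reached the 1 FPKM level only through the WT libraries, so its place among the 5 is no support. Likeness to Paqr9 over these libraries mostly measures the shared gap between the groups. For Adipoq the nearest profiles were those of Esd, Nsmce1, Csad, Wdr34 and Ascc1, with root mean square differences of 0.02 to 0.04. For Adipor2 they were Zbtb7a, 4930404N11Rik, Slc5a6, Hyou1 and Bcl9l, at 0.08 to 0.10.

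The other members of the membrane progestin receptor class were all low. Paqr7 (71904, chromosome 4, 134496761 to 134510237), also called mPRα, measured 0.88, 1.11 and 0.76 FPKM in WT, against 0.80, 1.23 and 0.74 FPKM in KO. Its groups overlapped fully (means 0.917 ± 0.178 and 0.923 ± 0.267 FPKM, limma adjusted p 0.999). Paqr8 (74229, chromosome 1, 20890548 to 20939650), or mPRβ, measured 0.40, 0.37 and 0.37 FPKM in WT, against 0.40, 0.54 and 0.40 FPKM in KO. By the estimate of depth these values of Paqr8 rest on 28.5 to 42.0 reads. Paqr5 (74090, chromosome 9, 61953738 to 62026852), or mPRγ, measured 0.18, 0.12 and 0.32 FPKM in WT, against 0.44, 0.20 and 0.20 FPKM in KO, or 6.3 to 21.3 reads. The Paqr5 ranges overlapped, and few reads lie behind them.

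Paqr6 (68957, chromosome 3, 88364072 to 88368541), or mPRδ, measured 0.26, 0.20 and 0.52 FPKM in WT, against 0.11, 0.12 and 0.15 FPKM in KO. No KO value reached the WT range, but the mean over all 6 libraries lay below the level for the test. The share without overlap was 24.9% over all tested genes. Reads were not estimated for Paqr6, which has 2 transcripts, and at this level few reads are likely to lie behind its values. Summed over Paqr5 to Paqr8, the class measured 1.72, 1.80 and 1.97 FPKM in WT, against 1.75, 2.09 and 1.49 FPKM in KO, which overlap. Paqr9 made up 84.8% ± 3.46 (SD, n = 3) of the summed class in WT and 41.2% ± 11.9 in KO.

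**Figure D4:**
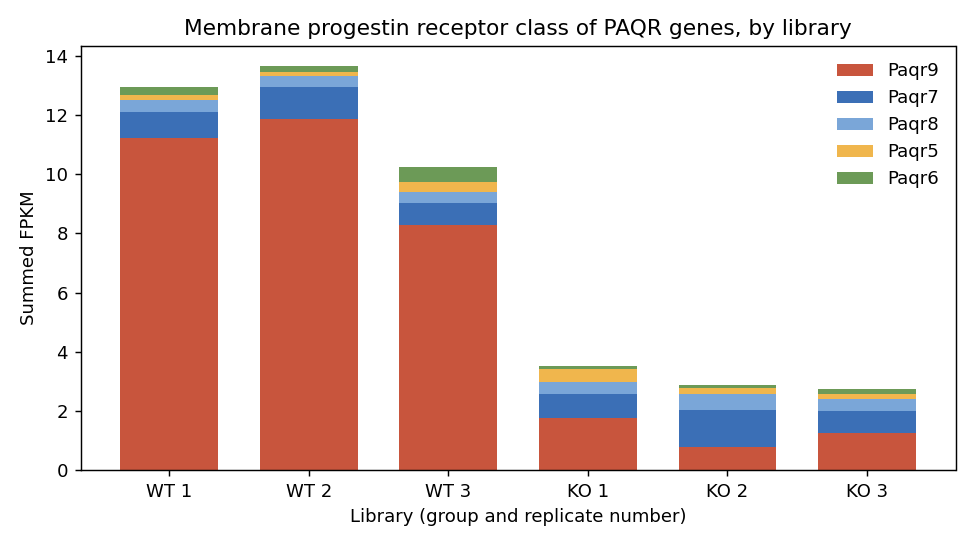
Summed FPKM of Paqr5 to Paqr9 in each library, stacked by gene. The bars reach 10.25 to 13.65 FPKM in WT and 2.74 to 3.52 FPKM in KO, and the part above the Paqr9 segment stays between 1.49 and 2.09 FPKM in all 6 libraries.

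Other genes of progestin binding showed 0 calls among 3 tested, with 0 at an unadjusted p under 0.05. The shares over all tested genes were 2.21% called and 19.2% at an unadjusted p under 0.05. The membrane-associated progesterone receptor components Pgrmc1 and Pgrmc2 were far more abundant than the PAQR members of the class. Pgrmc1 had means of 84.9 ± 11.04 FPKM in WT and 85.7 ± 18.1 FPKM in KO, and Pgrmc2 of 42.3 ± 2.39 FPKM and 37.6 ± 6.52 FPKM. Nenf, a small secreted relative, had means of 47.9 ± 7.46 FPKM and 49.4 ± 8.82 FPKM. Pgr, the nuclear progesterone receptor, was listed at 0 in 5 libraries and at 0.02 FPKM in WT replicate 2.

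Paqr3 (231474, chromosome 5, 97081364 to 97111749) measured 1.04, 0.60 and 0.41 FPKM in WT. The KO libraries held 1.2, 1.61 and 1.16 FPKM. All KO values lay above all WT values, though WT replicate 1 came close. The means were 0.683 ± 0.323 FPKM in WT and 1.32 ± 0.249 FPKM in KO (difference 0.48, SE 0.18, limma adjusted p 0.196), and by the estimate of depth they rest on 8.0 to 31.7 reads per library. Paqr3 overlaps Bmp2k on the opposite strand, and strand handling is not given in the sources used here. Reads of the 2 genes in the shared stretch may therefore not be told apart. Bmp2k itself had means of 5.47 ± 1.23 FPKM and 5.56 ± 0.261 FPKM (limma adjusted p 0.935).

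Paqr4 (76498, chromosome 17, 23736186 to 23740899) measured 4.03, 5.32 and 7.34 FPKM in WT, against 3.97, 4.87 and 3.48 FPKM in KO. The groups overlapped, and WT replicate 3 was the highest library. The means were 5.56 ± 1.67 FPKM in WT and 4.11 ± 0.705 FPKM in KO (difference -0.34, SE 0.21, limma adjusted p 0.41). Without WT replicate 3 the difference was -0.15, and without WT replicate 1 it was -0.52. Paqr4 overlaps the cell cycle kinase gene Pkmyt1 on the opposite strand, and Pkmyt1 had means of 2.35 ± 0.316 FPKM and 1.97 ± 0.0902 FPKM (limma adjusted p 0.552).

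Proteins reported to work with PAQR members were taken as a list of 13 genes, among them the SREBP escort Scap and the autophagy kinase subunit Atg14 for Paqr3. Of the 13, 1 was called, higher in KO (1.21% of all tested genes), and 6 had an unadjusted p under 0.05 (19.2% of all tested genes). Atg14 measured 3.0, 3.99 and 2.69 FPKM in WT, against 5.77, 6.46 and 8.35 FPKM in KO, with no overlap (difference 0.89, SE 0.18, limma adjusted p 0.0446). Leaving out any 1 library ended the Atg14 call, at adjusted p from 0.0684 to 0.142 and differences from 0.76 to 1.02. Pik3c3, the lipid kinase with which Atg14 forms a complex, had means of 8.98 ± 1.44 FPKM and 14.4 ± 1.10 FPKM (difference 0.63, limma adjusted p 0.073). Insig1, which holds Scap in the endoplasmic reticulum, had means of 18.3 ± 2.16 FPKM and 32.7 ± 7.10 FPKM (difference 0.79, limma adjusted p 0.0624). The remaining genes of the list with an unadjusted p under 0.05 were lower in KO: Map2k1 (difference -0.38), Map2k2 (-0.46) and Cdk4 (-0.38). The list's median difference was -0.09.

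The more distant PAQR relatives Mmd and Mmd2 were not called. Mmd, first described in maturing macrophages, measured 59.8, 76.0 and 60.2 FPKM in WT, against 41.3, 43.0 and 21.9 FPKM in KO. The Mmd groups did not overlap, and KO replicate 3 was the lowest (difference -0.92, SE 0.25, limma adjusted p 0.0945). Without KO replicate 3 the Mmd difference was -0.61. Mmd2 measured 16.0, 12.1 and 8.53 FPKM in WT, against 8.77, 9.29 and 4.74 FPKM in KO, which overlap (difference -0.63, limma adjusted p 0.256; without KO replicate 3 the difference was -0.36).

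The C1q/TNF-related relatives of adiponectin showed 0 calls among 9 tested genes, where 2.21% of all tested genes were called. Of the 9, 3 had an unadjusted p under 0.05 (19.2% of all tested genes), with mixed signs. C1qtnf3 had means of 3.09 ± 0.535 FPKM in WT and 1.58 ± 0.195 FPKM in KO (difference -0.66, limma adjusted p 0.0674). C1qtnf1 had means of 9.20 ± 1.78 FPKM and 14.9 ± 2.14 FPKM (difference 0.65, limma adjusted p 0.0969). C1qtnf7 had means of 2.92 ± 0.162 FPKM and 5.19 ± 1.35 FPKM (difference 0.63, limma adjusted p 0.117). The WT and KO values of these 3 genes, which had the smallest p of the list, did not overlap. The share without overlap over all tested genes was 24.9%.

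Of the markers of other cell types, 0 were called in any of the 6 lists, where 2.21% of all tested genes were called. At an unadjusted p under 0.05 in limma there were 2 of 12 skeletal muscle, 2 of 7 macrophage and 2 of 7 fibroblast and preadipocyte markers. The endothelial, erythroid and Schwann cell lists held 0. The share over all tested genes was 19.2%. The 12 skeletal muscle markers all had differences below 0. Their median was -0.72, and it was -0.03 when KO replicate 1 was left out. The median over all tested genes was 0.01. The 7 macrophage markers all had differences above 0 with 0 called, and their sums ranged from 87.7 to 134 FPKM in WT and from 114.0 to 167 FPKM in KO. The 6 endothelial markers summed to 447 to 543 FPKM in WT and 455 to 518 FPKM in KO, and the 7 fibroblast and preadipocyte markers to 546 to 717 FPKM and 582 to 997 FPKM. The 6 erythroid markers summed to 6437 FPKM in WT replicate 3, the WT library with the lowest Paqr9 and the highest Paqr4, and to between 1339 and 2186 FPKM in the other 5 libraries. The 6 Schwann cell markers summed to between 22.6 and 29.97 FPKM in all libraries. The part of cell composition in the values of the members was not tested.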

How the data were processed

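The authors deposited a table of FPKM values for 19241 genes with 2 decimals, per the file headers, which also give the symbols. The submitters' processing notes name HISAT2 2.0.4, Bowtie2 2.2.5 and the build mm10 without their roles; the annotation, filters and strand handling are not given in the sources used here. Because FPKM are not counts, log2(FPKM + 1) was tested with limma 3.58.1 in R 4.3.3 (eBayes with a trend, no covariates) over 13331 genes, with Benjamini-Hochberg adjustment. In simulated data with 200 genes changed by 1.5 on the log2 scale, among 13344 tested, 85% were recovered and 9 others called. The changed genes were drawn from above a higher level than the test requires, with independent normal noise. The tested members other than Paqr9 had smaller differences, between -0.34 and 0.48, so the 85% does not apply to them.

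Depth was estimated from steps between FPKM values below 1 of single-transcript genes of 500 to 1300 nt: 73.9% to 77.8% lay within 0.2 of a whole read, against 37.4% to 45.3% with shuffled lengths. Read numbers rest on this and on GENCODE vM21 transcript lengths, so they are approximate. Positions and synonyms came from RefSeq GRCm38.p6, the assembly of mm10.

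The members and all 18 gene lists were chosen with earlier results of these data known. Named were all members, Fstl1, sex-linked genes, up to 3 genes with the smallest p per pathway list, and the 5 most similar profiles for Paqr9, Adipoq and Adipor2; neighbours, overlapping genes, called markers, Fabp4, Ucp1, Prdm16, Ebf2, Pparg, Appl1 and Pgr were added after their values were seen, as were the motifs, the 2 sequences shown and the depth estimate. The alternatives are those of the closing section. The value of 1 gene of a list is not reported here.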

Additional observations from a re-analysis of the deposited data

How the results depend on the processing

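Among the 9 members other than Paqr9, 0 were called by limma under any of the 13 other settings below or the 6 added after seeing the data; 1 had an unadjusted p under 0.05 in the reported fit. The number of genes called overall was 295; it was 35 without the filter on low values, where 19241 genes enter the test, and 167 with the replicate block. Leaving out 1 library, with fewer samples in the fit, gave 370 called genes without WT replicate 1, 39 without WT replicate 2, 31 without WT replicate 3, and 121, 89 and 87 without KO replicates 1, 2 and 3. With the filter recomputed on the remaining 5 libraries, a setting chosen after seeing the data, the same omissions gave 444, 46, 34, 135, 122 and 87; the cause of these shifts was not tested. Only in that setting and without KO replicate 2 did Acer2 keep its call with a library left out (limma adjusted p 0.0441). Same-numbered libraries correlated at 0.043 to 0.068 in their deviations from the group means, too weakly to treat the numbers as pairs. With the replicate block Appl2, Acer2, Atg14, Plin1 and Lep lost their calls. Over the 13 settings Appl2 lost its call in 7, Acer2 in 9, Atg14 in 8 and Plin1 in 6 of 13, and Lep in 7 of 12. Without the filter Fstl1 had a limma adjusted p of 0.0606. Cebpb passed with a filter at 5 FPKM (limma adjusted p 0.0495) and without KO replicate 1 (0.0326), and Insig1 with that filter (0.0454). The Paqr9 difference ran from -2.99, at a pseudocount of 0.1, to -2.18. Values near 0 changed sign: Paqr7 was at -0.0068 with a pseudocount of 0.1, -0.037 with quantile normalization and -0.012 with median-of-ratios scaling, Pgrmc1 at -0.024 with the last, and Bmp2k at -0.012 with quantile normalization. Without 1 library Paqr7 ran from -0.111 to 0.072, Pgrmc1 from -0.157 to 0.136, Cdh13 from -0.052 to 0.176, Nenf from -0.098 to 0.132, Bmp2k from -0.071 to 0.185, Fabp4 from -0.151 to 0.0026 and U2surp from -0.0070 to 0.513. In 16 of the 18 lists the median moved by over 1.5 times or changed sign without some 1 library; the brown adipocyte and sex-linked lists were the exceptions. So did the small differences of Plod2 (0.06 to 0.31), Calr (-0.18 to -0.05), Pgrmc2 (-0.29 to -0.04), Appl1 (0.06 to 0.55), Pparg (0.05 to 0.35) and Pkmyt1 (-0.22 to -0.10), which kept their sign. Prdm16 passed with quantile normalization (limma adjusted p 0.0461), median-of-ratios scaling (0.0475) and without KO replicate 1 (0.0456), and Ebf2 with the replicate block (0.0295). Depth limits Paqr3, Paqr5 and Paqr8, which rest on few reads. Paqr6 was also low in FPKM, and its reads were not estimated.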
